A study of Mus musculus with 9 samples.

Results

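RNA was sequenced from macrophages of mouse visceral adipose tissue, sorted as cells that carried both F4/80 and CD11b, in 5 libraries of mice lacking Nucb2 and 4 of wild-type mice. The values described here are those of 36 genes of the cell division cycle, chosen by symbol from a list of DNA replication, S phase and mitosis genes. All 36 were among the 14905 genes of the deposited table. They fall into 15 S phase genes and 21 genes of the G2 phase and mitosis, called mitotic genes below. The KO group carried Nucb2-/- and the WT group was wild type, and both were on the C57BL/6 background. The disrupted gene codes for nucleobindin-2, which binds calcium. The name of the deposited table carries the letters HFD, commonly short for high-fat diet, which would then be shared by both groups, but no sample label states a diet. The labels give no age or sex, and do not say whether the disruption was in all tissues. Libraries carry replicate numbers but no mouse names, so the p-values rest on library-to-library spread, some of which may be technical.

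A cell that divides copies its DNA in S phase and separates the copies in mitosis, and it switches on different genes for each step. Tissue macrophages can renew themselves by dividing where they are, without new monocytes from blood, and in fat this local proliferation is known from obese mice. Few macrophages of a tissue divide at any moment, so in RNA from all sorted cells the level of these genes reflects how many cells are in cycle as well as how much RNA each cycling cell holds. In such bulk samples fewer dividing cells and less RNA per dividing cell cannot be told apart.

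The deposited values are read counts divided by 1 factor per library, with values under 1 set to 1, and are called normalized counts here. The smallest step between values gives the reads per library. The 6 deeper libraries, KO replicates 1 to 4 with WT replicates 1 and 2, held 74937721 to 85200101 reads. The 3 shallower ones, KO replicate 5 with WT replicates 3 and 4, held 51148956 to 55004978. Nucb2 stood between 1165 and 1752 normalized counts in the KO libraries and between 3311 and 5233 in the WT libraries. The transcript was thus lower in each KO library and still present. Among 8 macrophage markers, Adgre1, which encodes F4/80, lay between 85568 and 118970, Csf1r between 55070 and 78542 and Lyz2 between 749150 and 898310. Mertk stood lower, at 1527 to 3008 in KO and 1667 to 2888 in WT. Fcgr1 stood at 8685 to 11268 in KO and 11917 to 18179 in WT, without overlap. In the fit of KO against WT over all genes, 46 of 14905 passed a limma adjusted p of 0.05 (0.309%), 27 higher and 19 lower in KO, and with limma-voom 12 were higher and 20 lower. The count was 8, 14, 5, 8 and 9 without KO replicates 1 to 5 in turn. It was 38, 10, 18 and 19 without WT replicates 1 to 4, and 0 in the 6 deeper libraries alone.

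The promoters of the members are a feature that the choice of genes did not use, and they set the S phase and mitotic genes apart. As background, E2F factors bind sites near the start of S phase genes. The MuvB complex, with B-MYB and FOXM1, binds the short element called CHR (cell cycle genes homology region) at mitotic genes, often beside CCAAT boxes bound by NF-Y. RefSeq promoter windows (GRCm38.p6, 250 bases before to 50 after the start) were matched by symbol for 29 members, 12 S phase and 17 mitotic. A CHR (TTTGAA or TTCGAA, either strand) was present in 13 of 17 mitotic windows and in 2 of 12 S phase windows, against 16.6% of the 11283 genes of the deposited table that had a window. An E2F-type motif (the word TTCCCGC or the word TTCGCGC or the word TTGGCGC or the word TTGCCGC, on either strand) was present in 7 of 12 S phase and 3 of 17 mitotic windows, against 18.1%. A CCAAT box (CCAAT, either strand) was present in 9 of 12 and 15 of 17, against 42.5%. Of 24 E2F-type matches in the member windows, 3 overlapped a CCAAT box. A match is a run of letters and not a measured binding site.

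The 180 bases before the start of 7 members follow, 5′ to 3′ on the strand of the gene, with CCAAT boxes, CHR and E2F-type motifs in capitals. Kif11, Prc1 and Ccnb1 are shown because their values followed each other closely over the libraries, as did those of Mcm5 and Pcna. Cdk1 is a mitotic gene with all 3 kinds of motif whose values did not follow Kif11, and Mcm6 carries 4 E2F-type matches. The windows lie at chr19:37376202-37376381 (Kif11, plus strand), chr7:80294296-80294475 (Prc1, plus), chr13:100786487-100786666 (Ccnb1, minus), chr10:69352913-69353092 (Cdk1, minus), chr8:75109329-75109508 (Mcm5, plus), chr2:132253181-132253360 (Pcna, minus) and chr1:128359706-128359885 (Mcm6, minus). For Prc1, which has 2 starts in the table, the downstream one was used.
Kif11: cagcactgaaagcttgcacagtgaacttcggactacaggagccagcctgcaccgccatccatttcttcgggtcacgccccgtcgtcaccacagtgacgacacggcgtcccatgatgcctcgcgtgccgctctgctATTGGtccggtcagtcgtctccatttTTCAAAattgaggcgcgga
Prc1: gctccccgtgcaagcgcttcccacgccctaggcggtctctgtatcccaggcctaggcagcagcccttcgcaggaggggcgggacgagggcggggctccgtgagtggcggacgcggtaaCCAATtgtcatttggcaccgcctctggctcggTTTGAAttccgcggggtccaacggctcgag
Ccnb1: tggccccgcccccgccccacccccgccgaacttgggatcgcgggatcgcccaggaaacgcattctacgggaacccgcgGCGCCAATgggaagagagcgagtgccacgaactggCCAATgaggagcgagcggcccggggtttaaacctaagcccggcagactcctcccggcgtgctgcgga
Cdk1: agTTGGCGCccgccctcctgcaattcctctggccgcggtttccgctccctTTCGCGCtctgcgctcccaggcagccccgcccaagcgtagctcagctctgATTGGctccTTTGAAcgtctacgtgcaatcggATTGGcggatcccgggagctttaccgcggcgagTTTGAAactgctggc
Mcm5: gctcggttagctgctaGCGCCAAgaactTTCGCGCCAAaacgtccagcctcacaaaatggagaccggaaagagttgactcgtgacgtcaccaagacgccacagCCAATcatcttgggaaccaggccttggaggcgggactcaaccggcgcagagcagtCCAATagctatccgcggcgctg
Pcna: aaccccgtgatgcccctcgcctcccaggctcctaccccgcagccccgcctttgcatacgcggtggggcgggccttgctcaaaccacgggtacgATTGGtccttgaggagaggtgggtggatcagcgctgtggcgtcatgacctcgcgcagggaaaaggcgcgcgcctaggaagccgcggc
Mcm6: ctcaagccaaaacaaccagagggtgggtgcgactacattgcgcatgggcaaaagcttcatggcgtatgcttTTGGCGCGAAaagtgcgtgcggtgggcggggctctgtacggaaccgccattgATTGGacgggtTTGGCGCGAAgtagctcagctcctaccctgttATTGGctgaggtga
In Kif11 the CHR begins 19 bases and the CCAAT box, read on the other strand, 45 bases before the start. In Prc1 they begin 30 and 62 bases before it. Ccnb1 has 2 CCAAT boxes, beginning 99 and 67 bases before the start, the first overlapped by an E2F-type match at 102, and no CHR among these letters. Cdk1 has CHR motifs at 71 and 15 bases, CCAAT boxes at 80 and 48, and E2F-type motifs at 178 and 130. In Mcm5 the E2F-type motifs lie at 164, 152 and 149 bases and the CCAAT boxes at 77 and 22. Pcna shows 1 CCAAT box, at 87 bases, and no E2F-type match. Mcm6 has E2F-type matches at 109, 106, 46 and 43 bases, in overlapping pairs on opposite strands, and CCAAT boxes at 57 and 14.

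The comparison of KO with WT asks which transcripts of these macrophages differ without Nucb2. For the cell cycle it gave no call in either direction: 0 of 36 members passed over all genes in limma, and 0 of 36 with limma-voom. At an unadjusted p under 0.05 there were 4, of which Prc1, Nusap1 and Cdk2 were higher and Mcm4 lower in KO. These 4 are 11.1% of the members, beside 9.14% of all genes at the same level. Limma adjusted p of the members lay between 0.364 (Prc1) and 0.989 (Tpx2). The S phase genes had a median log2 difference of -0.09, with 4 above 0 and 11 below, and the mitotic genes one of 0.13, with 13 above and 8 below. Over all genes the median was 0.02. In 1 member, Mcm4, the ranges of the genotypes were apart (2.78% of members, beside 3.15% of all genes).

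**Figure D1:**
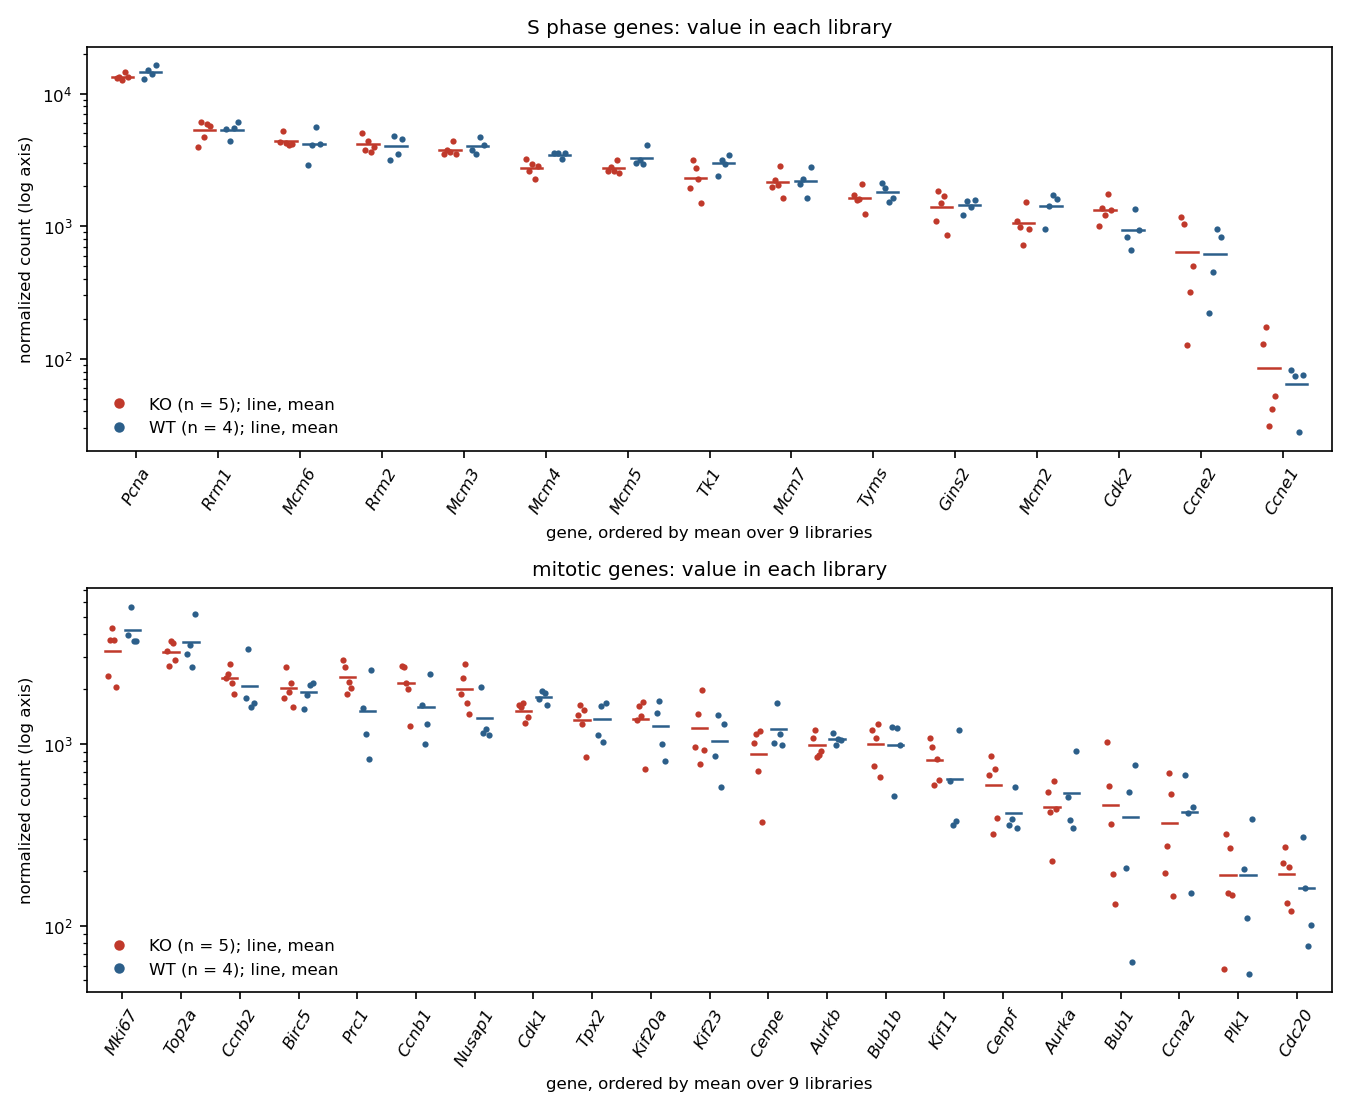
Normalized count (log axis) of each S phase gene (upper panel) and mitotic gene (lower panel) by gene in order of mean, with points for single libraries, KO (n = 5) and WT (n = 4), and lines for group means. The ranges overlap in every gene but Mcm4, where the 5 KO libraries lie between 2261 and 3182 and the 4 WT libraries between 3191 and 3583.

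What the data do limit is the size of a difference, and the limit was tighter for S phase than for mitotic genes. The 95% interval of the log2 difference (limma, each gene alone) lay within a 2-fold change either way in 12 of 15 S phase genes and 10 of 21 mitotic genes. It lay within a 1.5-fold change in 9 of 15 and 4 of 21. The interval did not include 0 in 2 genes of each group, the 4 named above. An adjusted p above the threshold does not show that the groups were alike, and for Ccne1, Ccne2, Bub1 and Plk1 the interval reached beyond 2-fold in both directions.

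**Figure D2:**
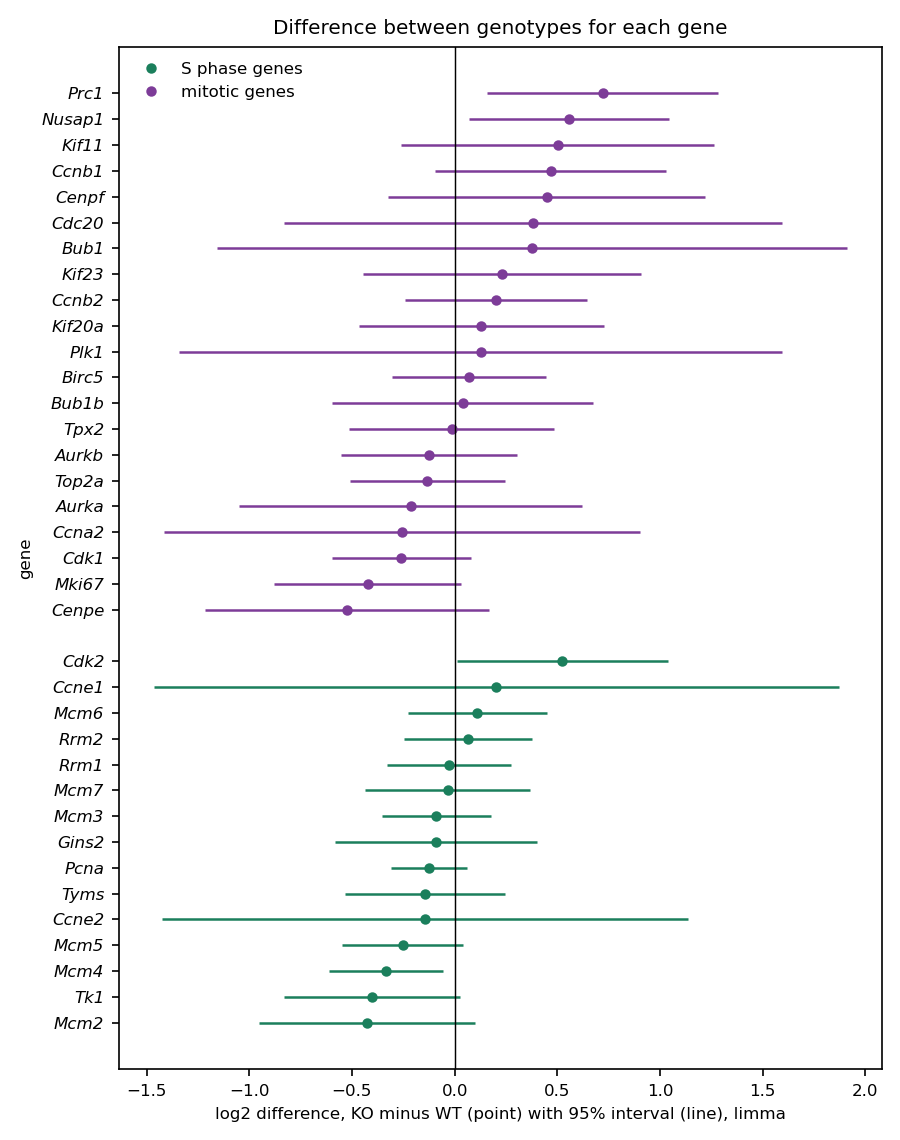
Log2 difference between KO and WT for each gene, with the 95% interval from limma, in rows ordered within the S phase and mitotic groups. Intervals are narrow for Pcna (-0.31 to 0.06) and Mcm3 (-0.35 to 0.18) and wide for Bub1 (-1.16 to 1.91) and Ccne1 (-1.47 to 1.87).

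Cyclin E and its kinase Cdk2 start S phase. Cdk2 had normalized counts of 998, 1366, 1204, 1755 and 1328 in KO replicates 1 to 5 and 823, 660, 1346 and 934 in WT replicates 1 to 4. WT replicate 3 lay inside the KO range and the other 3 WT libraries below it. The log2 difference was 0.52 (SE 0.24; limma adjusted p = 0.535), and 0.82 in the 6 deeper libraries (adjusted p = 0.62). The cyclin E genes were uneven between libraries. Ccne2 stood at 1178, 1043, 127, 317 and 500 in KO and 221, 450, 945 and 829.4 in WT, a 9.3-fold range within KO that enclosed the 4.3-fold range within WT. Ccne1 lay between 31.2 and 174 in KO and between 27.8 and 82.3 in WT.

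The MCM proteins form the helicase that opens DNA at replication origins, and 6 genes, Mcm2 to Mcm7, encode its ring. Mcm4 had 3182, 2615, 2924, 2261 and 2854 normalized counts in KO and 3534, 3566, 3191 and 3583 in WT. The highest KO library lay just under the lowest WT library. The log2 difference was -0.33 (SE 0.13, 95% interval -0.61 to -0.06; limma adjusted p = 0.428), and over all alternatives it lay between -0.39 and -0.26. Mcm5 stood at 2589, 2803, 2620, 3168 and 2505 in KO and 2972, 3127, 2955 and 4077 in WT, where only KO replicate 4 reached into the WT range (log2 difference -0.25, adjusted p = 0.606). Mcm2 differed by -0.43 (adjusted p = 0.635), Mcm3 by -0.09 and Mcm7 by -0.03, while Mcm6 differed by 0.11. The 6 subunits of this ring thus had differences of either sign and no call. Gins2, a subunit of the GINS complex that joins the active helicase, averaged 1397 ± 414 over the 5 KO and 1439 ± 168 over the 4 WT libraries (SD).

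Pcna encodes the sliding clamp that holds DNA polymerase on its template, and it had the highest level per length of the members. Its normalized counts were 13019, 13407, 12593, 14543 and 13317 in KO and 12971, 15174, 14061 and 16318 in WT. WT replicates 1 and 3 lay within the KO range, and the other 2 WT libraries above it. The log2 difference was -0.13 with an interval of -0.31 to 0.06 (limma adjusted p = 0.71). For genes that supply deoxynucleotides the log2 differences were also small: Rrm1 and Rrm2, the subunits of ribonucleotide reductase, by -0.03 and 0.07, and Tyms, thymidylate synthase, by -0.14. Tk1, the thymidine kinase of cycling cells, stood at 1925, 3137, 2754, 2265 and 1491 in KO and 2379, 3170, 2933 and 3465 in WT. KO replicates 1, 4 and 5 lay below all WT libraries and the other 2 KO libraries within the WT range (log2 difference -0.40, adjusted p = 0.577).

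Mki67 encodes Ki-67, the nuclear protein used to mark cycling cells. It had 2354, 3697, 4348, 3731 and 2037 normalized counts in KO and 3962, 5661, 3660 and 3660 in WT. KO replicates 1 and 5 lay below all WT libraries and WT replicate 2 above all KO libraries, with the rest mixed. The log2 difference was -0.42 (SE 0.21, interval -0.88 to 0.03; limma adjusted p = 0.583). Top2a, the topoisomerase that untangles chromosomes, stood at 3215, 2678, 3672, 3594 and 2883 in KO and 3117, 3493, 2645 and 5183 in WT. Its highest value was WT replicate 4 and its lowest WT replicate 3, so the WT range enclosed the KO range (log2 difference -0.13, adjusted p = 0.846).

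The mitotic kinase Cdk1 and its B-type cyclins drive entry into mitosis. For Cdk1 the KO mean was 1520 ± 161 normalized counts and the WT mean 1815 ± 142 (SD over 5 and 4 libraries), a log2 difference of -0.26 (limma adjusted p = 0.665). Its partner Ccnb1 stood on the other side, at 2689, 2639, 2145, 2002 and 1254 in KO and 1636, 993, 1278 and 2431 in WT (log2 difference 0.47, adjusted p = 0.63). WT replicates 1, 3 and 4 lay within the KO range and WT replicate 2 below it. Ccnb2 differed by 0.20 and Ccna2, whose cyclin acts in both S phase and mitosis, by -0.26, the latter with an SD within genotype of 0.94 on the log2 scale. Kinase and cyclin genes of 1 complex therefore lay on both sides of 0.

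Spindle genes gave the 2 smallest p-values among the mitotic members. Prc1, which bundles the microtubules of the central spindle, had 2900, 2652, 1876, 2183 and 2024 normalized counts in KO and 1580, 1137, 824 and 2539 in WT. The 3 lowest WT libraries lay below all KO libraries and WT replicate 4 lay within the KO range. The log2 difference was 0.72 (SE 0.27, interval 0.16 to 1.28; limma adjusted p = 0.364), and without WT replicate 4 it was 1.01 (adjusted p = 0.252). Nusap1, a microtubule-binding protein of the spindle, stood at 1881, 2283, 2743, 1673 and 1463 in KO and 2058, 1140, 1207 and 1110 in WT. Here WT replicate 1 was the library within the KO range (log2 difference 0.56, adjusted p = 0.467). Without that library the difference was 0.77 (limma adjusted p = 0.21). The kinesin Kif11, which pushes spindle poles apart, had 1080, 963, 593, 820 and 631 in KO and 624, 355, 377 and 1194 in WT, with WT replicate 4 the highest of all libraries. Kif20a and Kif23, kinesins of the central spindle, differed by 0.13 and 0.23 and Tpx2, which nucleates spindle microtubules, by -0.02.

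Bub1 and Plk1 were the most uneven of the mitotic genes between libraries of 1 genotype. Bub1, a checkpoint kinase, stood at 1028, 587, 364, 192 and 131 in KO and 208, 541, 63.3 and 764 in WT. That is a 7.8-fold range within KO and a 12.1-fold range within WT, and the fitted log2 difference was 0.38 with an interval of -1.16 to 1.91. Plk1, the polo kinase of mitosis, ranged from 57.7 to 320 in KO and from 54.4 to 387 in WT. The other kinases and checkpoint genes were steadier: Aurkb averaged 978 ± 147 in the KO and 1059 ± 68.9 in the WT libraries, and Bub1b 991 ± 276 and 986 ± 335 (SD over 5 and 4 libraries). Birc5, which encodes survivin of the Aurora B complex, differed by 0.07, Aurka by -0.22 and Cdc20, the activator of the anaphase-promoting complex, by 0.38. The kinetochore genes Cenpe and Cenpf lay on opposite sides, at -0.53 and 0.45.

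In all 36 members and both groups the coefficient of variation between libraries was above the value for counting error alone, least so for Aurkb in WT (6.5% beside 3.2%). The median coefficient of variation of the mitotic genes was 27.9% among KO and 33.9% among WT libraries, where counting error alone would give 2.7% and 3.0%. For the S phase genes it was 18.9% and 16.3%, where counting would give 1.9% in both. Among the 36 members the spread within genotype was smaller at higher mean normalized counts (Spearman rho -0.80 across genes, which are not independent replicates). The S phase genes were also the more abundant group by length: the mean normalized count per kilobase of annotated exon had a median of 489 in the S phase genes and 239 in the mitotic genes. Pcna was highest on this scale, at 5806, followed by Rrm2 at 1476 and Ccnb2 at 1441, and Ccne1 was lowest at 28.7.

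**Figure D3:**
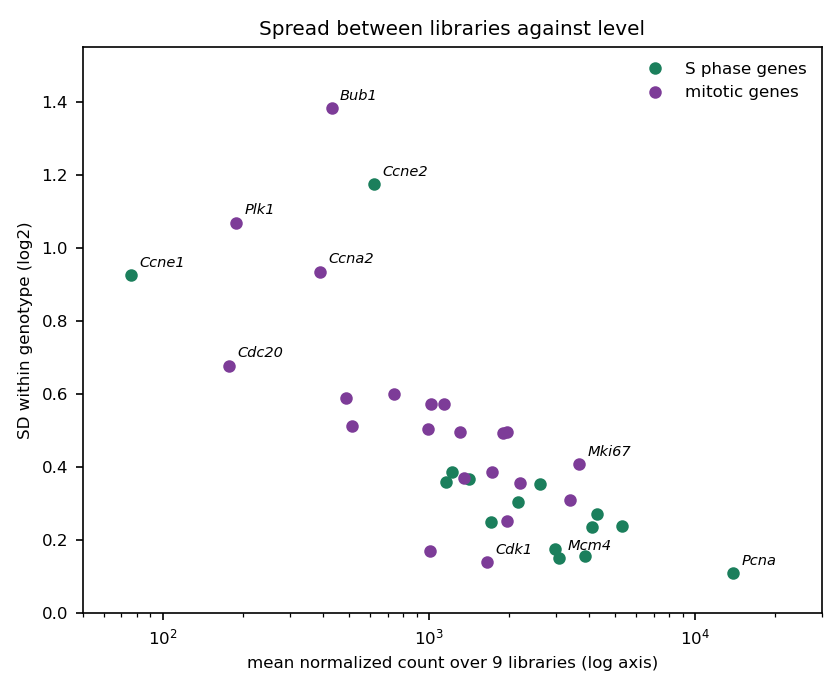
SD within genotype of the log2 value of each member against its mean normalized count (log axis), for S phase and mitotic genes. Bub1, Ccne2 and Plk1 lie highest, at 1.38, 1.18 and 1.07, and Pcna lies lowest, at 0.11.

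Summed over the 15 S phase genes, libraries held 44003 to 50553 normalized counts in KO and 44546 to 55771 in WT. The 21 mitotic genes summed to 20969 to 32062 in KO and 22847 to 31303 in WT. The ranges overlapped in both sums. Together the mitotic genes took a share of all normalized counts of 0.043% ± 0.006 (KO, SD, n = 5) and 0.040% ± 0.005 (WT, n = 4).

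Members of each group covaried weakly over the 9 libraries. Taken pair by pair, the median Pearson r was 0.24 over the 210 pairs of mitotic genes, with 158 above 0, and 0.18 over the 105 pairs of S phase genes, with 76 above 0. Between the groups it was 0.10 over 315 pairs, with 194 above 0. For comparison it was 0.00, with 49.6% above 0, over all pairs of the 11768 genes whose mean was at least that of the lowest member. With each value centred on its genotype the medians were 0.26, 0.18 and 0.14. In the 6 deeper libraries alone they were 0.04, 0.07 and 0.09, so the medians within each group were nearer to 0 without the 3 shallower libraries. All points share the libraries and their depth, and these correlations are descriptions without a test.

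**Figure D4:**
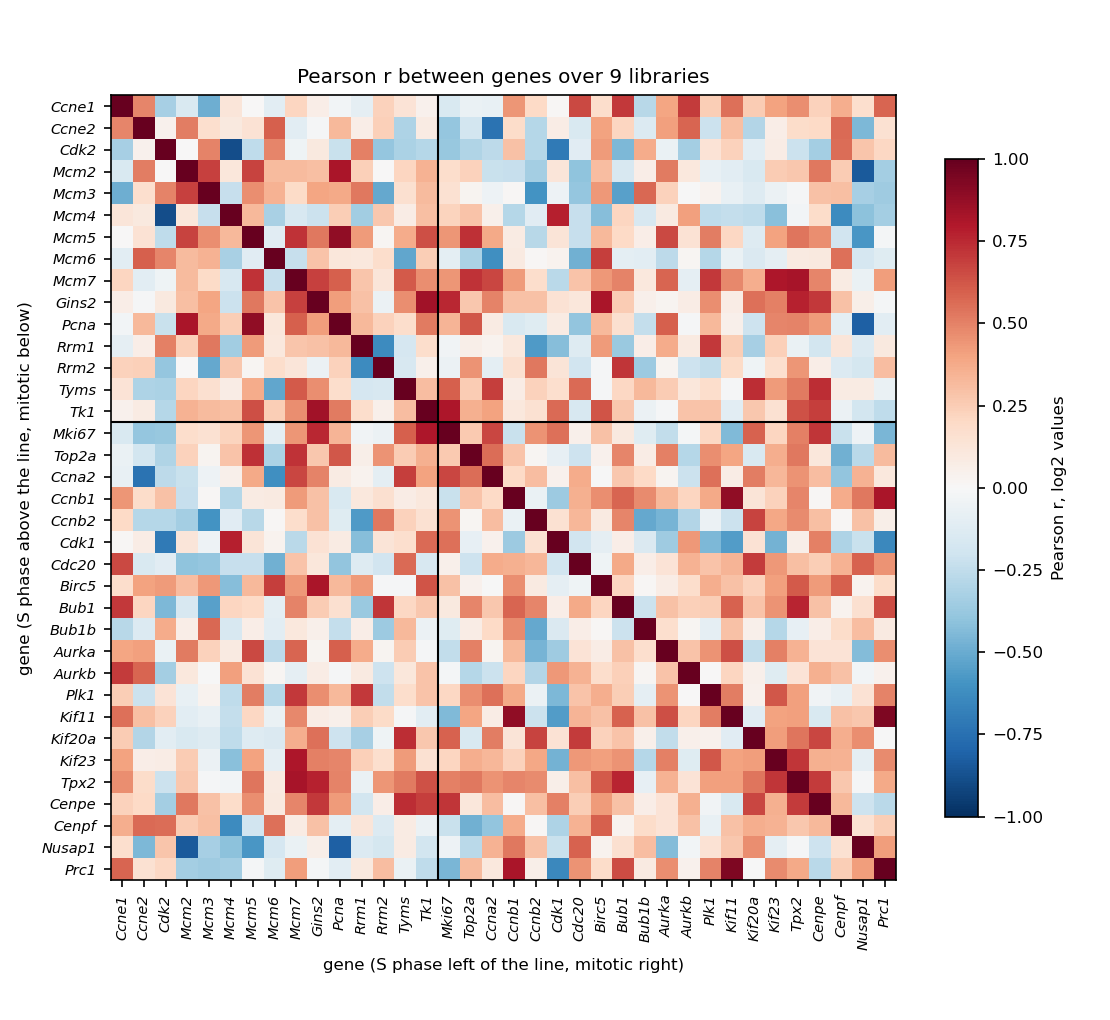
Pearson r of log2 values over 9 libraries for each pair of the 36 genes; lines separate S phase genes (left and above) from mitotic genes. The darkest red cell off the diagonal is Kif11 with Prc1 (0.93) and the darkest blue cell Cdk2 with Mcm4 (-0.88).

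Within this weak pattern a few genes moved closely together, both within the groups and between them. An r above 0.5 was found in 15.2% of pairs of S phase genes and 15.2% of pairs of mitotic genes. Between the groups it was found in 14.6% of pairs, beside 9.26% over all pairs of the 11768 genes. Kif11 and Prc1 had r = 0.93 (rho 0.92), which was 0.96 without the 2 libraries farthest from the Kif11 median and 0.98 in the 6 deeper libraries. Ccnb1 joined them, with r = 0.89 to Kif11 and 0.81 to Prc1. Among S phase genes Mcm5 and Pcna had r = 0.89 (rho 0.72; 0.83 without 2 libraries), and Mcm2 and Pcna 0.82 (rho 0.83; 0.91 without 2). Gins2 and Tk1 had r = 0.84 (rho 0.65), which fell to 0.33 without KO replicates 5 and 1, so it rested on those libraries. Across the groups, the S phase gene Mcm7 and the mitotic gene Tpx2 had r = 0.82 (rho 0.82). That r was 0.87 without 2 libraries and 0.45 in the 6 deeper libraries. Gins2 and the mitotic gene Birc5 also had r = 0.82 (rho 0.88). Pairs also ran opposite: Cdk2 and Mcm4 had r = -0.88 (rho -0.85; -0.89 without 2 libraries), and Pcna and Nusap1 -0.82 (rho -0.83; -0.67). These pairs are extremes of all those above and were picked out after their values were seen. Cdk1, which like Kif11 has a CHR and a CCAAT box before its start, had r = -0.56 with it (rho -0.68). That r was -0.43 without 2 libraries and -0.40 with values centred on genotype. The r of Cdk1 with the mean of the other mitotic genes was -0.24 (-0.12 when centred), the lowest of the 21. Tpx2 had the highest, 0.84.

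A score per library, the mean over a group's genes of the log2 value minus its mean over the 9 libraries, places each library on both axes. The S phase score was 0.05, 0.22, -0.27, 0.04 and -0.21 in KO replicates 1 to 5 and -0.16, 0.04, 0.06 and 0.23 in WT replicates 1 to 4. The mitotic score was 0.13, 0.32, 0.01, 0.23 and -0.45 in KO and 0.06, -0.02, -0.50 and 0.22 in WT. KO replicate 2 and WT replicate 4 were high on both, and KO replicate 5 was low on both. WT replicate 3 was low for mitotic genes only and KO replicate 3 for S phase genes only. The scores are not scaled by spread, so uneven genes weigh more in them. In KO replicate 3 the cyclin E genes lay far below their means over the 9 libraries (Ccne2 127, mean 624, and Ccne1 31.2, mean 76.3). Cdk2, Gins2, Rrm2 and Tk1 lay above their means there and the other S phase genes below. The KO and WT ranges overlapped on both axes, with KO minus WT differences of -0.08 and 0.11, each smaller than the SD of its score within a group (0.20 and 0.16 for S phase, 0.30 and 0.31 for mitotic genes in KO and WT).

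**Figure D5:**
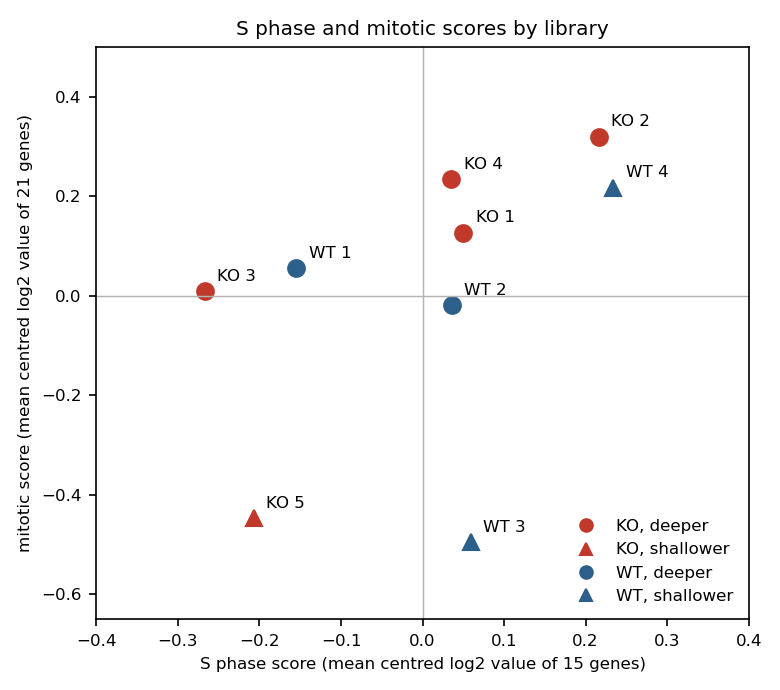
Mitotic score against S phase score for each library, coloured by genotype, with circles for the 6 deeper and triangles for the 3 shallower libraries. The 2 lowest mitotic scores, -0.45 and -0.50, are shallower libraries (KO replicate 5, WT replicate 3), while the third shallower library, WT replicate 4, is at 0.22.

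The scores of the 2 groups of genes had r = 0.46 and rho = 0.38 over 9 libraries, and r = 0.72 in the 6 deeper ones. Without KO replicates 3 and 5, the libraries farthest from the median S phase score, r was 0.31, and without WT replicate 3 it was 0.71. Depth moved with the mitotic score: the number of reads and the score had r = 0.63 (rho 0.53) and, without KO replicate 5 and WT replicate 4, 0.91, which leaves WT replicate 3 as the only shallower library. In the 6 deeper libraries it was 0.50. Within the deeper libraries the KO minus WT difference was 0.07 for the S phase score and 0.16 for the mitotic score. Within the shallower libraries, 1 KO against 2 WT, it was -0.35 and -0.31, so the sign differed between the depth classes in both. The part of depth in these scores was not tested.

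Outside the members, the genes whose log2 values followed the mitotic score most closely over the 9 libraries were Adgra3 (r = 0.96), the macrophage marker Cd68 (0.94), the lipid receptor gene Cd36 (0.92), Mgst3, Sun2, Retsat, Lsm3, Magee1, Ctsa and Cdk18, the last 3 at 0.89. They are the first 10 of 11348 genes with a mean of at least 100, and 0 of them belong to the lists of cell cycle genes. As extremes picked by r from so many genes over 9 libraries, they were not tested against chance. Of 41 further mitosis genes 32 had a positive r with the score (78.0%; median 0.24), beside 48.5% of all genes ranked. Of 37 further replication genes 13 did (35.1%; median -0.10).

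Further genes of the pathway, from lists of textbook members, gave no call either. Of 38 other replication genes 0 passed over all genes in limma, with 11 above and 27 below 0, a median log2 difference of -0.15 and 2 at an unadjusted p under 0.05 (5.26%, beside 9.14% of all genes). In the same 2 the ranges of KO and WT were apart (5.26%, beside 3.15%). They were Orc3, a subunit of the origin recognition complex (KO 3468 ± 379, WT 4681 ± 834, SD over 5 and 4 libraries; limma adjusted p = 0.279), and Rfc3, of the complex that loads Pcna (836 ± 199 and 1271 ± 128; adjusted p = 0.338). Prim1, a primase subunit, differed by 0.42. Of 42 other mitosis genes 0 passed, 23 lay above and 19 below 0, and the median was 0.03. At an unadjusted p under 0.05 in limma there was 1 (2.38%, beside 9.14% of all genes). That gene alone had ranges that were apart (2.38%, beside 3.15%). The smallest p was that of the condensin subunit Ncapd2, with a KO mean of 925 ± 204, a WT mean of 528 ± 96.2 and ranges that did not overlap (log2 difference 0.80, adjusted p = 0.285), followed by Ndc80 at 0.58 and Kif15 at -0.62.

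Genes that open or close the gate to S phase gave no call. The 5 D-type cyclin and partner kinase genes had 0 calls, 0 at an unadjusted p under 0.05 and a median of 0.03, with Ccnd3 at 0.49, Ccnd1 at -0.34 and Ccnd2 at 0.25. Of 15 measured inhibitors of cyclin-dependent kinases and arrest genes 0 passed and 4 had an unadjusted p under 0.05 (26.7%, beside 9.14% of all genes). Of those 4, 2 were higher and 2 lower in KO. In 3 of the 15 the ranges of KO and WT were apart (20.0%, beside 3.15%), Cdkn1b and Gadd45b among them. Btg2, an antiproliferative gene induced early by stress, averaged 67222 ± 6549 over the KO and 54276 ± 5030 over the WT libraries (limma adjusted p = 0.179). Its ranges overlapped, at 56951 to 74633 in KO and 49090 to 61110 in WT. Cdkn1b, which encodes the inhibitor p27, had 5540 ± 698 and 4554 ± 368 (adjusted p = 0.482), with all 5 KO libraries above all 4 WT libraries. For Gadd45b, a stress-induced arrest gene, all 5 KO libraries lay below all 4 WT libraries, at 13083 ± 242 against 15739 ± 2009 (SD; adjusted p = 0.312). Of 20 genes of the E2F, RB and MuvB families 0 passed and 1, E2f2, an activating E2F, had an unadjusted p under 0.05 (293 ± 128 and 120 ± 69.7, adjusted p = 0.513); Rbbp4 and Tfdp1 differed by -0.19 and -0.33.

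Signals that set macrophage proliferation were read from 16 measured genes, of which 0 passed and 3 had an unadjusted p under 0.05 (18.8%, beside 9.14% of all genes). Ccl2, a chemokine reported to drive macrophage division in fat, averaged 48303 ± 3702 over the 5 KO and 38333 ± 8467 over the 4 WT libraries (SD), and the WT range reached into the KO range. Its log2 difference was 0.35 (limma adjusted p = 0.273). Klf2 and Klf4, transcription factors linked to quiescence, differed by 0.49 and 0.37 (adjusted p = 0.33 and 0.461). The CSF1 receptor gene Csf1r differed by 0.12. The list's median was 0.09.

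Other cells in the sort could also divide, and markers of several types were present. Of 12 T and NK cell markers 11 were measured, and their summed level was 7214 to 9398 normalized counts in KO and 6775 to 9840 in WT. Of 8 B cell markers 7 were measured, at 4335 to 13151 and 5648 to 12165. The 11 measured markers of mast cells, basophils and eosinophils summed to 1918 to 3916 in KO and 6371 to 11208 in WT, without overlap. In the log2 difference 2 of them lay above and 9 below 0. Of the 11, 4 passed (beside 0.309% of all genes), all lower in KO. The 8 dendritic cell markers summed to 10774 to 13798 and 6819 to 10416, also without overlap. They were mixed, with 5 above and 3 below 0 and log2 differences from -3.494 to 1.535. Of the 8, 1 passed (beside 0.309% of all genes), higher in KO. The 7 measured neutrophil and progenitor markers summed to 2257 to 3786 in KO and 1837 to 2880 in WT. The 8 macrophage markers summed to between 1284600 and 1496700 in the 9 libraries. Of them 0 passed and 3 had an unadjusted p under 0.05 in limma (37.5%, beside 9.14% of all genes). Of those 3, 1 was higher and 2 were lower in KO. In 1 marker, Fcgr1, the ranges were apart (12.5%, beside 3.15%). In these lists 0 measured markers were at the floor in all libraries. The 8 fibroblast and adipose stem cell markers summed to 255580 to 395750 in KO and 174360 to 297740 in WT. In the log2 difference 7 of 8 lay above 0, with a median of 0.36. At an unadjusted p under 0.05 in limma there were 3, all higher in KO (37.5%, beside 9.14% of all genes), and 0 were called. The log2 of their sum had r = -0.82 (rho -0.83) with the S phase score over 9 libraries. That r was -0.73 without WT replicate 4 and KO replicate 5, and -0.75 in the 6 deeper libraries. With the mitotic score r was -0.36, and 0.35 without those 2 libraries. The 8 mesothelial markers summed to 5629 to 18470 in KO and 2255 to 7637 in WT, and 8 of 8 lay above 0 in the log2 difference. Of these markers 5 had an unadjusted p under 0.05 in limma (62.5%, beside 9.14% of all genes), and 0 were called. Their sum had r = -0.60 (rho -0.55) with the S phase score, -0.88 without WT replicate 2 and KO replicate 1, and -0.40 in the 6 deeper libraries. The 8 endothelial markers summed to 4600 to 7624 in KO and 3011 to 4704 in WT, with 7 of 8 above 0 and a median log2 difference of 1.29. At an unadjusted p under 0.05 in limma there were 5, of which 4 were higher and 1 lower in KO (62.5%, beside 9.14% of all genes). In 3 the ranges were apart (37.5%, beside 3.15%), and 0 of these markers were called. Their sum had r = -0.54 (rho -0.57) with the S phase score, -0.14 when KO replicate 5 and WT replicate 4 were left out, and -0.02 among the 6 deeper ones. The macrophage markers had r = 0.63 with the mitotic score, and 0.00 in the 6 deeper libraries. These measures were picked, after their values were seen, from 12 set beside both scores. The part of these cells in the cell cycle values was not tested.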

How the data were processed

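RNA-seq was described in 9 libraries of sorted mouse adipose macrophages, 5 KO and 4 WT. Libraries were strand-specific (dUTP), from oligo-dT purified RNA, per the labels' protocols. CASAVA 1.8.2, DESeq2, HISAT, Partek and mm10 are listed, without roles, per the submitters' processing notes. How genes were annotated, counted and filtered is not given in the sources used here. Deposited by the authors was 1 signal per gene and library, on a linear scale with a floor of 1; that it is a read count over 1 factor per library was read from the values, of which 99.5% to 99.7% above 1 were whole multiples of 1 step per library within 0.1 of a step. Totals from the steps were 51148956 to 85200101 reads per library, which limits only counting error. All 9 columns matched a library by name.

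The test was limma 3.58.1 (R 4.3.3) on log2 of the value plus 1, with a mean-variance trend, no term but genotype, and p-values adjusted over 14905 genes by Benjamini-Hochberg. Fold changes on that scale understate changes of low genes. The members and lists were chosen with earlier results of these data known. All members were named; of the other pathway lists, genes past the threshold and up to 3 more with the smallest p; and the 10 genes most correlated with the mitotic score. Csf1r, Adgre1, Lyz2, Mertk, Fcgr1 and Nucb2 were added. Exon lengths came from GENCODE M21 and promoters from RefSeq (GRCm38.p6); 29 of 36 members matched. Code was tested on simulated data. Alternatives were pseudocounts, filters, TMM and quantile scaling, depth class, the 6 deeper libraries, replicate number and each library left out; limma-voom on the reads was added after seeing the data. Correlations used Python 3.11.15 and SciPy 1.17.1, figures matplotlib 3.10.9.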

Additional observations from a re-analysis of the deposited data

Results flagged for a closer look

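The 36 members and the genes of the other pathway lists named by smallest p made 54 genes. In these and both scores, each group was looked at for a library whose gap to its neighbour took most of the group's range. That marked 9 of 112 groups, and chance marks about 5% of groups. Among WT libraries, WT replicate 3 was low for Ccne1 (27.8 normalized counts, next 73.8) and Mcm4 (3191, next 3534). WT replicate 2 was high for Mki67 (5661, next 3962) and Ccnb2 (3306, next 1789) and low for Ndc80 (492.6, next 780.6). WT replicate 4 was high for Mcm5 (4077, next 3127), and WT replicate 1 was high for Nusap1 (2058, next 1207). Among KO libraries, KO replicate 4 was high for Mcm3 (4380, next 3724) and KO replicate 2 for Mcm6 (5182, next 4341). No library was marked for either score.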

How the results depend on the processing

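No member passed an adjusted p of 0.05 in limma or limma-voom under any of 19 alternatives, in 684 fits of 36 members; the smallest adjusted p was 0.21 (Nusap1 without WT replicate 1). The sign of the difference changed at least once in 20 members (59 fits) and in 0 of the other 16, among them Prc1, Nusap1, Cdk2, Mcm4, Pcna and Mki67. The median of the S phase genes was 0.05 in the 6 deeper libraries and otherwise between -0.15 and -0.04; that of the mitotic genes was -0.02 without WT replicate 3 and otherwise between 0.03 and 0.18. The count over all genes was 0 in the 6 deeper libraries (1039 at an unadjusted p under 0.05), 0 with the replicate number as a block (1104), 32 with limma-voom, and 5 to 38 with 1 library left out; fewer libraries were fitted there, and the cause was not tested otherwise. The block drops KO replicate 5. Deviations of same-numbered libraries had r between -0.01 and 0.05, and 2 of 4 WT libraries correlated best with their own number. With so few libraries these values do not settle whether same-numbered libraries were paired, and the labels give only the number. The correlation of the scores was 0.72 in the 6 deeper libraries and 0.28 to 0.71 with 1 library left out. The planned edgeR test was not run, since the floor of 1 hides the lowest counts. Counting error alone gives a coefficient of variation of 10.1% in KO and 12.7% in WT for Ccne1, beside 73.0% and 38.4% between libraries.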
